A study of Rattus norvegicus with 6 samples.

Results

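Globin genes encode the oxygen-carrying chains of red blood cells, and 9 rows of the count table, of 29884 in all, carry an adult-type globin symbol or that of a globin copy. They were chosen by their counts in the comparison described here, which were lower after treatment in an earlier look at these data, and were then taken by symbol. Of them, Hba-a1, Hba-a2, Hba-a3 and Hbq1b are alpha-type, and Hbb, Hbb-b1, Hbb-b2, Hbb-bs and LOC100134871 are beta-type. RefSeq gives the gene behind LOC100134871 the symbol Hbbl1. They were measured by RNA-seq in trigeminal ganglia, which hold the sensory neurons of the face, of wild-type rats. The 3 injury libraries came from rats with a chronically constricted infraorbital nerve (CCI-ION), a model of trigeminal neuralgia. The 3 conduit libraries came from rats with the same constriction that then received the light-driven gel conduit named SFM-Gel-light @NGC, so every library carries the injury, and no uninjured ganglion was analysed here. The labels give days 14, 15 and 16 after injury for injury samples 1 to 3 and days 17, 18 and 19 for conduit samples 1 to 3, so that the day rises by 1 with each sample. They give batch 1 for injury samples 1 and 2, batch 2 for injury sample 3 and conduit sample 1, and batch 3 for conduit samples 2 and 3. The labels give neither strain, sex nor age, nor say whether a library is 1 animal. Each SD therefore measures the spread between these libraries. The labels do not settle whether the days are true sampling days; if they are, day cannot be told apart from treatment.

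A haemoglobin molecule joins alpha-type with beta-type chains around heme. Alpha and beta genes lie in separate clusters, each holding embryonic and adult genes and near-identical adult copies, and both are switched on strongly in red cell precursors by the factors GATA1 and KLF1. Red cells of the blood have lost their nucleus, but the youngest, the reticulocytes, still carry globin mRNA. In a ganglion, globin RNA can therefore come from blood in its vessels or from blood-forming cells taken with the tissue. In these bulk samples fewer red cells and less globin RNA per red cell cannot be told apart.

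The promoters show how alike the copies are, and which letters they share, for the genes whose balance is described here. All 9 members matched a promoter in the RefSeq table of build GRCr8, a later build than the mRatBN7.2 named for the counts. Along chromosome 10 the order is Hba-a3, Hba-a2, Hbq1b, Hba-a1 and the embryonic Hbz; along chromosome 1 it is Hbb-bs, Hbb-b1, LOC100134871, Hbb-b2, Hbb and then the embryonic genes Hbg1, Hbe2 and Hbe1. Each window holds 250 bases before the gene start and 50 after it, on the minus strand. The windows are chr10:15842531-15842830 for Hba-a1, chr10:15829089-15829388 for Hba-a2 and chr10:15816894-15817193 for Hba-a3, and chr1:167663672-167663971 for Hbb, chr1:167643471-167643770 for Hbb-b1 and chr1:167631581-167631880 for Hbb-bs. Capitals mark matches, on either strand, to the TATA letters TATAAA, the CCAAT box CCAAT, the CACC box CACACCC, of the kind KLF1 binds, and the GATA letters GATAAG.
Hba-a1: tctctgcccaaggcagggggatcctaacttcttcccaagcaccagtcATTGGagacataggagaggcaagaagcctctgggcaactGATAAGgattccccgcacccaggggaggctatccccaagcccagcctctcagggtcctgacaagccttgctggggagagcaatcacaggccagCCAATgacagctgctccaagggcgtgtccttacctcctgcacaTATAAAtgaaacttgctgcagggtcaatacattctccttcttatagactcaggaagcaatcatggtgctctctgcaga
Hba-a2: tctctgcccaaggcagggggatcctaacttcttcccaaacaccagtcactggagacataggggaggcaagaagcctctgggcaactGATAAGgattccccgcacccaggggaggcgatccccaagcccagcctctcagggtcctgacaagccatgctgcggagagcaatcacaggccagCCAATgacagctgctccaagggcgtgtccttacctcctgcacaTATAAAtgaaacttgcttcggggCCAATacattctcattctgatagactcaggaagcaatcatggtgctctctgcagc
Hba-a3: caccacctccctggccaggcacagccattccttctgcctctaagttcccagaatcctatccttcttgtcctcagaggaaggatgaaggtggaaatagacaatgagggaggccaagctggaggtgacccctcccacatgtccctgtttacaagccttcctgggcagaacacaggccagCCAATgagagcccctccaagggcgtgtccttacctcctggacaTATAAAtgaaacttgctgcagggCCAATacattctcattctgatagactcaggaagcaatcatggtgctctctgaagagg
Hbb: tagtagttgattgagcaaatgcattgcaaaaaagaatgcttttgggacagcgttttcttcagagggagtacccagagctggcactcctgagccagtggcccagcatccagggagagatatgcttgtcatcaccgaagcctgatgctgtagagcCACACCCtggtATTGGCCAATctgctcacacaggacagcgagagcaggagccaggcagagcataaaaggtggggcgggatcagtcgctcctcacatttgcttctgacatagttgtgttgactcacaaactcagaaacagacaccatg
Hbb-b1: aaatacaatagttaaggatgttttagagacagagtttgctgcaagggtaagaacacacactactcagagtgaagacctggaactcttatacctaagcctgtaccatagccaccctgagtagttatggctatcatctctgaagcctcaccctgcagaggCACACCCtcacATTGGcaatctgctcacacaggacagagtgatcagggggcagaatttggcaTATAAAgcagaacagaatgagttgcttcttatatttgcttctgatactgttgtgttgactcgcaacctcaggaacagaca
Hbb-bs: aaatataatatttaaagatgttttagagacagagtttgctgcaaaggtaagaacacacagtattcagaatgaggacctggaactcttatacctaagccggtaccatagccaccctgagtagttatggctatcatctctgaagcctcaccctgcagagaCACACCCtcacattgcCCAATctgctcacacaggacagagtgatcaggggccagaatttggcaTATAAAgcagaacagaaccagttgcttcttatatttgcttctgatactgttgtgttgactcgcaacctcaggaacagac

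Hba-a1 and Hba-a2 had 288 of 300 aligned bases in common, or 96.0%, while Hba-a3 shared 199 of 285 with Hba-a1. The windows of Hbb-b2 and LOC100134871 were identical over all 298 aligned bases. Hbb-b1 matched each of these at 98.3%, Hbb-bs matched Hbb-b1 at 95.3%, and Hbb stood further off, at 65.6% to 70.7% of the aligned bases of the other beta-type genes. CACACCC occurred in all 5 beta-type windows and in no alpha-type window, against 7.08% of 33469 promoters of the same length. GATAAG occurred at the same place, 164 to 159 bases before the start, in Hba-a1 and Hba-a2, once in Hbq1b and not in Hba-a3 (7.05% of all promoters). TATAAA was matched in 7 of the 9 windows, those of Hbb and Hbq1b being without it (14.2% of all), and CCAAT in 8 (37.5% of all). No matches of different motifs overlapped. A match is a description of letters, not a site. Transcripts of the copies were not compared, but reads may be shared between adult copies, so the level of a single copy is uncertain.

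Totals ran from 40.2 M to 41.9 M counts per library. The 10 sensory neuron markers listed (among them Tubb3, Prph and Scn10a) were all tested and summed to 9695 to 13027 CPM (counts per 1000000, with TMM-scaled library sizes) per library. Some libraries stood apart. The cell division list summed to 116 and 78.4 CPM in injury samples 2 and 3 and to 18.5 to 28.02 CPM in the others. The skeletal muscle list summed to 373 CPM in injury sample 1 and 6661 CPM in conduit sample 2, and to 7.36 to 15.5 CPM elsewhere.

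Globin RNA was lower in all 3 conduit libraries. The 9 rows took 0.514%, 0.570% and 0.476% of all counts in injury samples 1 to 3 and 0.134%, 0.0517% and 0.0563% in conduit samples 1 to 3. On the TMM-scaled level this is 5104 ± 393 CPM in injury against 814 ± 440.3 CPM in conduit (SD, n = 3 each), a 6.27-fold difference (log2 fold change, conduit over injury, -2.65). The conduit spread came from 1 library: conduit sample 1 held 1321 CPM of globin and samples 2 and 3 held 529 and 592 CPM. Within batch 2, which pairs injury sample 3 with conduit sample 1, the log2 difference of the sum was -1.82. The members were put together with this difference known, so it is given as a description with no test. All 9 members passed the filter on low counts, all 9 were lower in conduit, and in all 9 every conduit library lay under every injury library. Of the 16478 genes tested, 49.5% were lower by sign, 4.22% were lower without overlap of the groups and 5.41% were higher without overlap. The filter could be passed through the injury libraries alone, so nothing is read from that count.

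**Figure D1:**
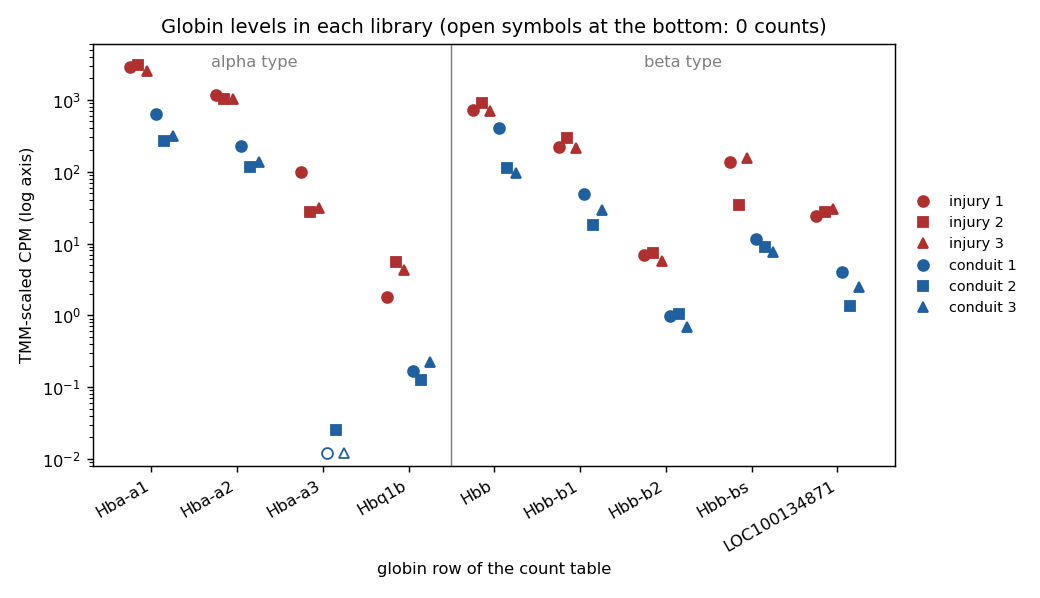
TMM-scaled CPM (log axis) of each globin row in each library, with injury libraries in red, conduit libraries in blue and a symbol shape per sample number. Every row is lower in the conduit libraries; Hba-a3 is at 0 counts in conduit samples 1 and 3 (open symbols, placed at the bottom edge), and conduit sample 1 lies closest to injury for Hbb.

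Hba-a1, a major adult alpha-globin gene, had 115448, 130216 and 103280 counts in injury and 25935, 10686 and 12686 in conduit. Scaled, these were 2870, 3079.9 and 2489 CPM against 626, 268 and 319 CPM, so the lowest injury library lay well above the highest conduit library. The log2 fold change was -2.80 (SE 0.33). By FPKM (counts per gene length and library total, as deposited) it was the most abundant member in every library, and ranked 6th to 8th of all genes in injury. In conduit it ranked 25th in sample 1, 87th in sample 2 and 83rd in sample 3.

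Hba-a2, whose promoter window was 96.0% identical to that of Hba-a1, had 46667, 44133 and 43182 counts in injury and 9504, 4698 and 5502 in conduit. Its level was 1160.2, 1044 and 1041 CPM in injury, the narrowest injury group of the 9 members relative to its mean, and 229, 118 and 138 CPM in conduit. The log2 fold change was -2.74 (SE 0.26). The FPKM ratio of Hba-a1 to Hba-a2 was 2.43, 2.90 and 2.35 in injury and 2.68, 2.24 and 2.27 in conduit, overlapping groups. Its highest value was 1.30 times its lowest, the narrowest range of any pair of copies of the same type.

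Hba-a3, a further alpha-type gene of the cluster, behaved unlike Hba-a1 and Hba-a2. It had 4010, 1158 and 1293 counts in injury, and 0, 1 and 0 in conduit. On the CPM scale injury sample 1 held 341% of the mean of injury samples 2 and 3. Per 1000 counts of Hba-a1 and Hba-a2 together, Hba-a3 stood at 24.7, 6.64 and 8.83 in injury, while the single count in conduit sample 2 is 0.0650 per 1000. In conduit samples 1 and 3, a count of 0 allows up to 0.0847 and 0.165 per 1000, taking 3 counts as the limit. Over each group, Hba-a3 relative to Hba-a1 and Hba-a2 was 923 times higher in injury, with a 95% counting interval from 166 to 36474 that rests on 1 conduit count. The interval covers counting error only. Hba-a3 therefore did not keep its proportion to the other alpha genes, either between the groups or among the injury libraries. Whether the counts of 0 reflect expression, the assignment of reads among copies or a difference between the rats in their copies of the gene was not tested. A fitted fold change is not given for it, since against counts this low it depends on the prior count.

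Hbq1b, a theta-type gene of the alpha cluster whose product has no established part in haemoglobin, was far scarcer. It had 73, 232 and 176 counts in injury and 7, 5 and 9 in conduit, which is 1.81, 5.49 and 4.24 CPM against 0.169, 0.126 and 0.226 CPM. The log2 fold change was -4.45 (SE 0.54). Injury sample 1 was the lowest injury library here, at 37.3% of the mean of injury samples 2 and 3, although it stood at 103% of that mean for Hba-a1 and 111% for Hba-a2.

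Hbb, the beta-globin gene with the most counts, showed the smallest difference of the 9. Its level was 714, 897 and 693 CPM in injury and 401, 113 and 94.6 CPM in conduit. Conduit sample 1 stood far above the other conduit libraries. The log2 fold change was -1.92 (SE 0.57) with all libraries and -2.89 without conduit sample 1, and within batch 2 it was -0.79.

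Hbb-b1, the next most abundant beta-type row, was at 220.4, 292 and 214 CPM in injury and 48.7, 18.2 and 29.7 CPM in conduit (log2 fold change -2.91, SE 0.37). LOC100134871 was at 24.02, 27.7 and 30.6 CPM in injury and 3.98, 1.36 and 2.51 CPM in conduit (log2 fold change -3.39, SE 0.37). Hbb-b2 was the scarcest beta-type row, at 6.81, 7.47 and 5.71 CPM in injury and 0.965, 1.05 and 0.678 CPM in conduit (log2 fold change -2.89, SE 0.26). In all 3 rows the injury libraries lay close together and above every conduit library. For Hbb-b2, unlike Hbb, conduit sample 1 did not stand out.

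Hbb-bs, a further beta-type row, split the injury group. It was at 138 and 155 CPM in injury samples 1 and 3 but at 33.96 CPM in injury sample 2, the library with the highest Hbb and Hbb-b1. Conduit libraries lay at 11.6, 9.07 and 7.53 CPM, a narrow range beneath all of them (log2 fold change -3.53, SE 0.59). Without injury sample 2 the log2 fold change was -3.96.

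Per length, the order in injury was Hba-a1 (5149 ± 632 FPKM), Hba-a2 (2008 ± 70.1), Hbb (1266 ± 223), Hbb-b1 (342 ± 71.9), Hbb-bs (174 ± 103), Hba-a3 (97.01 ± 71.7), LOC100134871 (44.96 ± 6.38), Hbb-b2 (10.8 ± 1.63) and Hbq1b (2.53 ± 1.29), each as mean ± SD with n = 3. Hbb-bs and Hba-a3 overlapped between libraries; the other neighbours in that order did not. In conduit the 3 leading rows were Hba-a1 (718 ± 367 FPKM), Hbb (326 ± 286) and Hba-a2 (291 ± 116). Hbb overlapped both Hba-a1 and Hba-a2, while every Hba-a1 value lay above every Hba-a2 value. Hbb-b1 (43.9 ± 22.2), Hbb-bs (14.6 ± 3.67), LOC100134871 (4.15 ± 2.19), Hbb-b2 (1.41 ± 0.334) and Hbq1b (0.108 ± 0.0295) followed without overlap, and Hba-a3 was last. Leaving Hba-a3 aside, the 8 log2 fold changes ran from -4.45 to -1.92 with a median of -2.90, against a median of 0.00 over all genes tested. Within batch 2 the 8 differences of log2 CPM, with a prior count of 2, ran from -4.30 to -0.79 with a median of -2.34. This prior is not that of the fitted fold changes, and it shrinks differences at low counts such as those of Hbq1b.

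Alpha-type rows summed to 4132, 4157 and 3565 CPM in injury and 855, 386 and 457 CPM in conduit. Beta-type rows summed to 1103, 1258 and 1098 CPM in injury and 466, 143 and 135 CPM in conduit. The difference was 6.98-fold for alpha and 4.65-fold for beta, and without conduit sample 1 it was 9.37-fold and 8.30-fold. Per length, the alpha to beta ratio was 4.32, 3.82 and 3.74 in injury and 2.08, 3.09 and 3.91 in conduit, or 3.96 ± 0.315 against 3.03 ± 0.916 (SD, n = 3 each). Conduit sample 3 lay within the injury range and conduit sample 1 was lowest, so the groups overlapped. The ratio of Hba-a1 and Hba-a2 to Hbb alone was 6.31, 5.14 and 5.69 in injury and 2.39, 3.82 and 5.40 in conduit. With Hbb left out of the beta sum, the alpha to beta ratio was 13.03, 14.6 and 10.7 in injury and 16.5, 16.1 and 14.2 in conduit, and conduit sample 1 was then the highest library. Conduit sample 1 was thus low in the alpha to beta ratio through the Hbb row.

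Copies also shared the beta-type counts unequally from library to library. Hbb took 64.7%, 71.3% and 63.1% of the beta-type counts in injury and 86.002%, 79.2% and 70.1% in conduit. Hbb-b1 took 19.98%, 23.2% and 19.5% in injury and 10.5%, 12.8% and 21.97% in conduit. Hbb-bs took 12.5%, 2.70% and 14.1% in injury and 2.49%, 6.34% and 5.58% in conduit. The 95% Clopper-Pearson intervals of all these shares reached at most 1.24 percentage points to either side, which covers counting error only. Library differences such as that of Hbb-bs in injury sample 2 were larger than this. By FPKM, Hbb over Hbb-b1 was 3.78, 3.58 and 3.79 in injury, 9.61 and 7.25 in conduit samples 1 and 2, and 3.72 in conduit sample 3. Among the alpha-type counts Hba-a1 took 69.5%, 74.1% and 69.8% in injury and 73.2%, 69.4% and 69.7% in conduit, overlapping groups. The ratio of LOC100134871 to Hbb-b1 was 0.134 ± 0.0290 in injury and 0.0933 ± 0.00617 in conduit (SD, n = 3 each), with every conduit library under every injury library. Among the beta-type pairs this ratio varied least, its highest library at 1.93 times its lowest; the widest was Hbb over Hbb-bs, at 7.71 times.

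**Figure D2:**
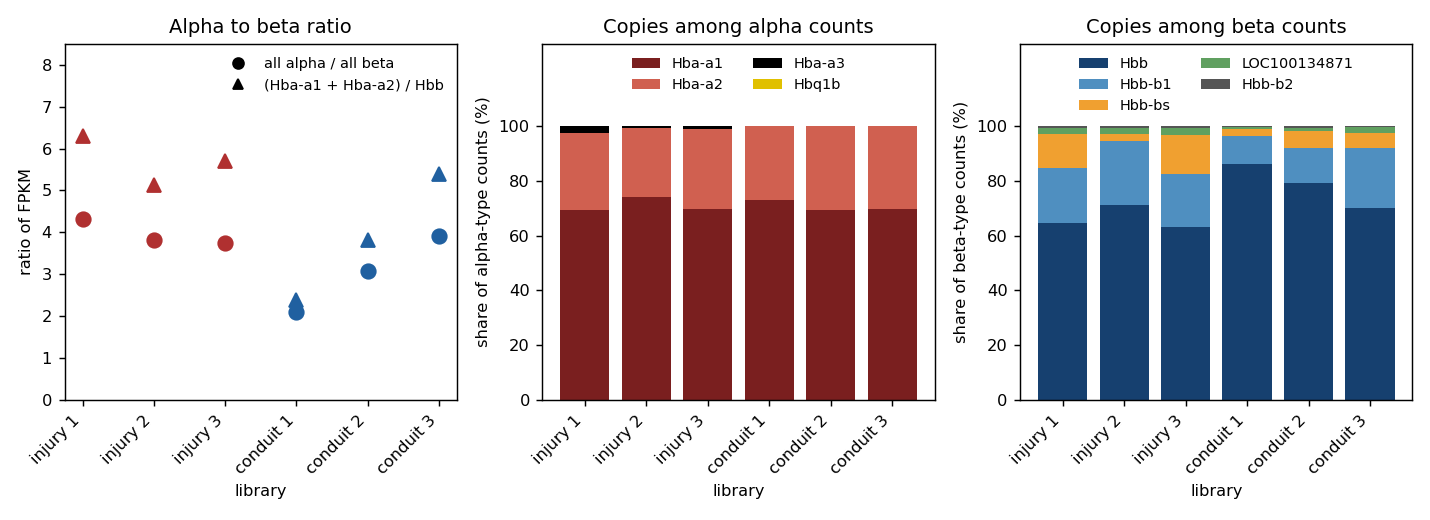
Left, ratio of alpha-type to beta-type FPKM in each library, over all rows (circles) and as Hba-a1 plus Hba-a2 over Hbb (triangles). Middle and right, share of alpha-type and of beta-type counts (%) taken by each copy. The alpha to beta ratio is lowest in conduit sample 1, at 2.08, where Hbb takes 86.002% of the beta-type counts, and Hbb-bs takes 2.70% in injury sample 2 against 12.5% and 14.1% in the other injury libraries.

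No embryonic globin had more than 3 counts in any library, the limit that a count of 0 allows. Hbz and Hbe2 had 0 counts in every library. Hbe1 had at most 2 counts in a library, and Hbg1 had 3 in injury sample 2 and 0 elsewhere. Of the globins of other cells, Cygb, cytoglobin of fibroblast-like and other cells, was 26.9 ± 4.20 CPM in injury and 31.4 ± 0.865 CPM in conduit (edgeR adjusted p = 0.9998). Ngb, the neuronal globin, was 5.40 ± 1.41 CPM in injury and 3.27 ± 0.130 CPM in conduit (edgeR adjusted p = 0.799). Mb, the myoglobin of muscle, was at 49.002 and 529.8 CPM in injury sample 1 and conduit sample 2, where the muscle list was high, and at 0.0482 to 0.577 CPM in the others.

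Other genes of red cells were taken from 4 lists of 48 symbols: the alpha-globin chaperone, heme synthesis, red cell membrane and maturation, and regulators of the globin loci. Of these 45 were tested over all 16478 genes. edgeR called 0 of them at adjusted p under 0.05 (it called 0.00607% of all genes, 1 lower and 0 higher). At an unadjusted p under 0.05 edgeR had 26 lower and 0 higher, where 2.36% of all genes were lower and 2.99% higher. DESeq2, which tested 17494 genes and 47 of the lists' genes, called 21 lower and 0 higher, 19 of them among the 45. Of all the genes it tested, DESeq2 called 0.56% lower and 0.635% higher. The list median was -0.40, and the lists differed in makeup, since many heme and membrane genes are used by other cells too. Of the 45, 25 were lower and 0 higher without overlap, against 4.22% and 5.41% of all genes. As for the members, passing the filter through the injury libraries alone was possible. The lists were chosen with earlier results of these data known, so their counts, here and below, are a description only.

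Ahsp, which keeps free alpha chains soluble, was at 4.33, 33.02 and 27.9 CPM in injury and at 1.62, 1.58 and 1.78 CPM in conduit (edgeR adjusted p = 0.514). In heme synthesis the median of 15 genes was -0.24, and edgeR had 7 lower at an unadjusted p under 0.05 (2.36% of all genes). Alas2, which starts the making of heme in developing red cells, was at 48.03, 87.6 and 67.9 CPM in injury and 11.1, 4.90 and 5.20 CPM in conduit (edgeR adjusted p = 0.121). Alas1, the form that other cells use, was 47.5 ± 3.93 CPM in injury and 48.98 ± 8.45 CPM in conduit. Cpox, Fech and Alad, later and shared steps of the same path, had log2 fold changes of -0.82, -0.47 and -0.30.

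Of the membrane and maturation genes 19 were tested, with a median of -3.45, and 13 were lower at an unadjusted edgeR p under 0.05, against 2.36% of all genes. Slc4a1, the anion exchanger band 3 of the red cell membrane, was at 12.3, 114 and 93.6 CPM in injury and at 2.44 to 3.31 CPM in conduit. Rhd and Kel, which carry blood group antigens, and Hemgn, a nuclear protein of blood-forming cells, had log2 fold changes of -4.18, -4.19 and -4.73. Of the 10 regulators 5 were lower at the same threshold, again against 2.36%. Gata1 was at 0.746, 5.68 and 3.35 CPM in injury and at 0.0251 to 0.0502 CPM in conduit. Klf1, the activator of adult beta-globin, was at 1.54, 11.2 and 8.19 CPM in injury and at 0.929 to 1.0045 CPM in conduit. Nfe2 and Myb had log2 fold changes of -3.20 and -3.71. Bcl11a and Zbtb7a, which silence embryonic and fetal globins, had log2 fold changes of -0.40 and -0.05, and Ldb1, which joins the globin enhancer to its promoters, -0.18.

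Many of the other red cell genes did not follow the major globins among the injury libraries. Injury sample 1 held 103% of the Hba-a1 level and 89.8% of the Hbb level of injury samples 2 and 3. For 16 of the 25 red cell genes that were lower without overlap, it held between 3.32% and 20.5% of their mean level; these included Ahsp (14.2%), Slc4a1 (11.8%), Gata1 (16.5%) and Klf1 (15.9%). Alas2 stood at 61.8%, and the other 8 of the 25, among them Cpox (64.7%), Fech (75.5%), Alad (88.5%) and Bpgm (106%), stood between 64.7% and 106%. Per 1000 alpha-type globin counts, Slc4a1 stood at 2.97 in injury sample 1, at 27.4 and 26.3 in injury samples 2 and 3, and at 2.85, 8.58 and 5.94 in conduit. Ahsp stood at 1.05, then 7.94 and 7.82, and at 1.89, 4.09 and 3.90 in conduit. Alas2 stood at 11.6, 21.1 and 19.1 in injury and at 13.0, 12.7 and 11.4 in conduit. On this scale injury sample 1 lay with or under the conduit libraries for these 3 genes, while its globin level was that of the injury group. This split among the injury libraries was seen in the data and was not tested.

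**Figure D3:**
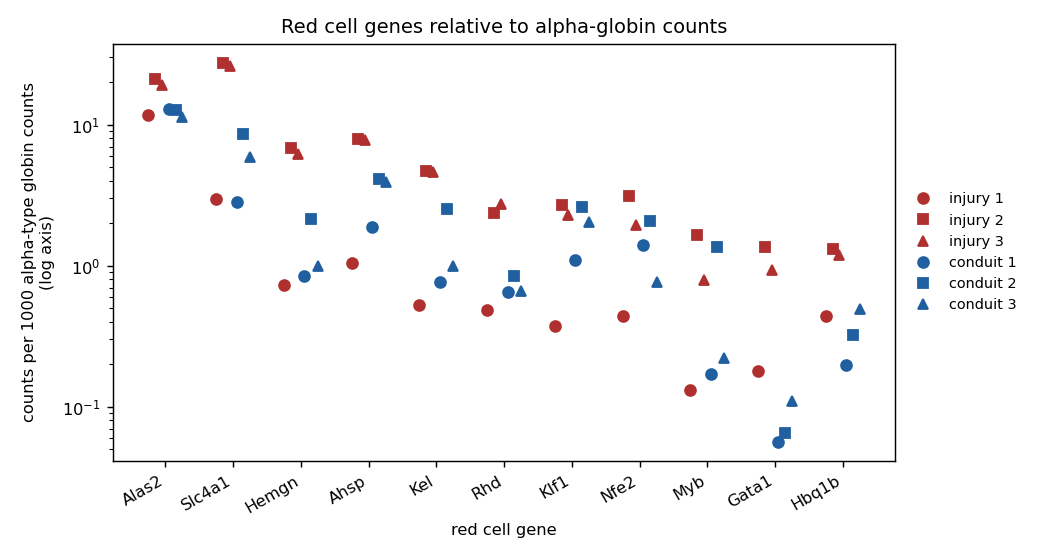
Counts of red cell genes per 1000 alpha-type globin counts of the same library (log axis), for the genes named by rule from the red cell lists that are expressed mainly in blood-forming cells, and Hbq1b. Injury samples 2 and 3 are above injury sample 1 for every gene plotted, for example 27.4 and 26.3 against 2.97 for Slc4a1.

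Markers of other blood cells, of dividing cells and of bone were also lower in conduit by sign, with edgeR calling 0 of each list at adjusted p under 0.05. At an unadjusted p under 0.05, edgeR had 3 of 4 platelet genes, 8 of 9 neutrophil genes, 5 of 10 cell division genes and 5 of 8 bone genes lower and 0 higher, against 2.36% of all genes lower and 2.99% higher. DESeq2 called 3 platelet, 4 neutrophil, 1 cell division and 1 bone gene lower and 0 higher, against 0.56% and 0.635% of all genes. The platelet list, 7 genes of which 4 were tested, summed to 12.98, 80.9 and 24.1 CPM in injury and 4.85 to 8.76 CPM in conduit. Pf4, a platelet chemokine, was at 9.20, 26.9 and 9.57 CPM in injury and 1.98 to 4.54 CPM in conduit. Ppbp, another platelet chemokine, had 0, 500 and 85 counts in injury samples 1 to 3 and 0, 7 and 0 in conduit samples 1 to 3. The neutrophil list, 10 genes of which 9 were tested and all 9 lower, summed to 57.3, 679.6 and 127 CPM in injury and 9.31 to 33.6 CPM in conduit. S100a8, an abundant neutrophil protein gene, was at 13.3, 154 and 33.1 CPM in injury and 2.46 to 6.38 CPM in conduit. The cell division list was highest in injury samples 2 and 3. Mki67, a marker of cycling cells, was at 43.8 and 28.9 CPM there, 3.51 CPM in injury sample 1 and 3.16 to 5.74 CPM in conduit. Bone genes summed to 779, 1807 and 1766 CPM in injury and 1073 to 1434 CPM in conduit. Most of this sum was the collagen gene Col1a1, at 1205 ± 456 CPM in injury and 1142 ± 184 CPM in conduit (SD, n = 3 each). Of the 8 bone genes, 2 were lower and 0 higher without overlap, against 4.22% and 5.41% of all genes. Ibsp, of these 2, was at 8.60, 56.0 and 34.2 CPM in injury and 3.57 to 6.83 CPM in conduit. Bglap was at 26.0, 84.9 and 83.4 CPM in injury and 9.49 to 27.4 CPM in conduit, overlapping groups. Endothelial genes, which line the vessels that hold blood, summed to 163 to 187 CPM in injury and 168 to 219.8 CPM in conduit, and 0 of 6 had an unadjusted edgeR p under 0.05. Schwann cell genes, which make myelin, were higher in conduit by sign in 6 of 6, 5 of them without overlap (5.41% of all genes), and summed to 33151 ± 3536 CPM in injury and 46366 ± 3277 CPM in conduit (SD, n = 3 each). At an unadjusted p under 0.05 edgeR had 5 of the 6 higher and called 0, and DESeq2 called 5 higher; Pmp22, a myelin protein gene, had a log2 fold change of 0.56 (edgeR adjusted p = 0.243). These lists too were chosen with earlier results of these data known, so their counts are a description only. The part of all these cells in the globin difference was not tested. With injury samples 2 and 3 both left out, a choice made after seeing the data, only injury sample 1 remained in its group. The log2 difference of the globin sum was then -2.68, which rests on that 1 injury library and is a description only.

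Genes that clear haemoglobin and heme did not pass the test: edgeR called 0 of 11, with 1 lower and 0 higher at an unadjusted p under 0.05, DESeq2 called 0, and the median was -0.13. Slc40a1, the iron exporter, was 13.1 ± 4.87 CPM in injury and 7.91 ± 0.841 CPM in conduit (edgeR adjusted p = 0.894). Hmox1, which breaks heme down, was 11.99 ± 2.80 CPM in injury and 9.39 ± 2.25 CPM in conduit (edgeR adjusted p = 0.9998). The ferritin gene Fth1 was 3568 ± 786 CPM in injury and 4440.2 ± 387 CPM in conduit (edgeR adjusted p = 0.9998), and Blvrb, which reduces biliverdin, was 21.9 ± 3.84 and 17.5 ± 0.353 CPM. The haemoglobin scavenger receptor Cd163 was at 0.796, 5.49 and 1.40 CPM in injury and 0.176 to 2.15 CPM in conduit, overlapping groups.

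**Figure D4:**
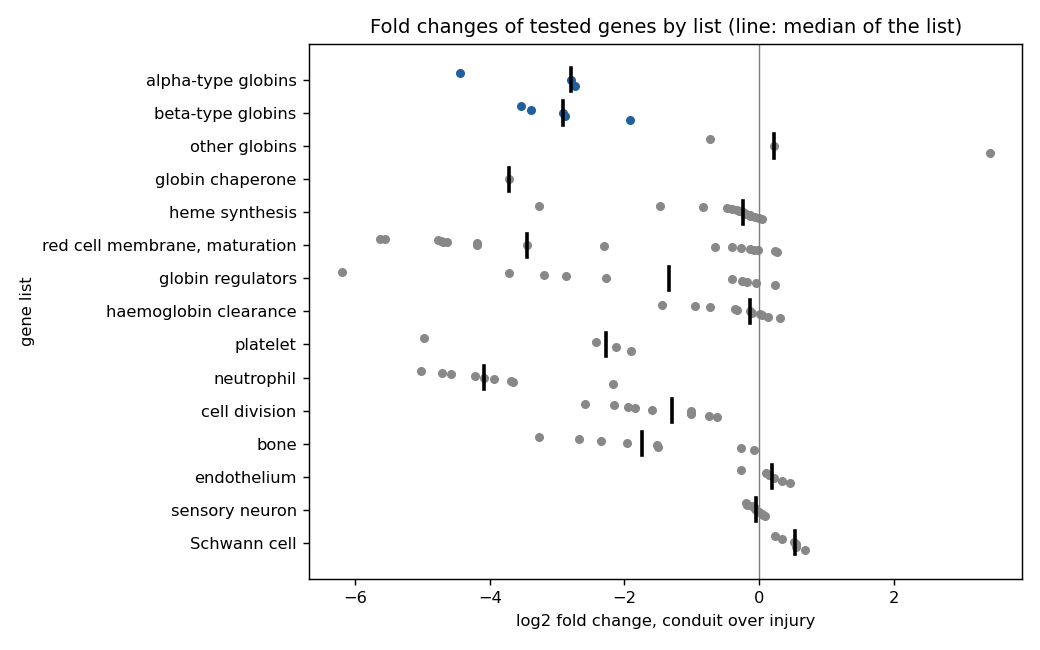
Log2 fold change, conduit over injury, of every tested gene of each list (points) with the list median (line). Alpha-type and beta-type globins are in blue, and Hba-a3 and the muscle list are not drawn. The blue points lie between -4.45 and -1.92, while the other globins, in grey, run from -0.72 to 3.43. Sensory neuron genes have a median of -0.04 and haemoglobin clearance genes a median of -0.13.

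Among 13409 other genes whose mean log2 CPM reached 1, the 6 profiles nearest to the summed globin profile were those of Alas2, Pf4, Dsp, Ciart, RGD1563601 and Sp7. Likeness was the root mean square difference of log2 CPM over the 6 libraries after centring each gene, which was 0.37 for Alas2, 0.52 for Pf4 and Dsp, 0.57 for Ciart and RGD1563601, and 0.69 for Sp7. Alas2 is of the red cell itself and Pf4 of platelets, while Dsp encodes a desmosome protein, Ciart a repressor of the circadian clock and Sp7 a factor of bone-forming cells. Dsp was at 8.48, 7.59 and 7.76 CPM in injury and 0.941, 1.13 and 0.527 CPM in conduit. RGD1563601, the gene that edgeR called over the whole table, was at 29.2, 24.8 and 26.3 CPM in injury and 3.93, 5.75 and 4.27 CPM in conduit. These profiles share their libraries and the difference between the groups, and nearness in so few libraries is a description only.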

How the data were processed

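The authors deposited unscaled read counts, 1 row per gene symbol, and FPKM tables that hold the same counts divided by gene length and library total: over 15192 genes with at least 10 counts in every library, both gave the same gene length within a relative difference of 1e-04. Build mRatBN7.2 and the tools HISAT2, HTSeq, DESeq2, SAMtools and fastp are listed in the submitters' processing notes. How HTSeq treated reads that map to several copies, its strand setting, the annotation and tool versions: not given in the sources used here. Reads that fit several globin copies may thus be lost or assigned to 1 copy.

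Groups came from the titles. In R 4.3.3 with edgeR 4.0.16, genes were kept by filterByExpr (minimum count 10), libraries TMM-scaled and the quasi-likelihood test (robust) run over 16478 genes, with p-values adjusted by Benjamini-Hochberg and a threshold of 0.05. The SE of a log2 fold change is its absolute size over the square root of F in this edgeR test. It rests on dispersions moderated over all genes tested and is given for the members as a description only. DESeq2 1.42.0 and limma 3.58.1 served as alternatives. With 3 libraries against 3 an exact permutation test cannot go below p = 0.1. The members and all gene lists were chosen with earlier results of these data known, so the members are described without tests. Named genes were all members, up to 4 per list with the smallest edgeR p, and the 6 nearest profiles. Alas1, Cd163, Bcl11a, Zbtb7a, Ldb1, Ppbp and Col1a1, the marker examples Tubb3 and Prph, and Bpgm were named after their values were seen. The same-numbered libraries are not paired by the labels. Other settings tried were scaling, filters, tests, FPKM with a pseudocount of 1 or 0.1, replicate or batch terms, and libraries left out. Promoters came from RefSeq (GRCr8) and were aligned with Biopython 1.88.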

Additional observations from a re-analysis of the deposited data

How the results depend on the processing

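The summed globin log2 fold change of -2.65 stayed negative under all 16 alternatives, from -3.19 to -1.82, the latter being batch 2 alone; with each library left out it ran from -3.19 (without conduit sample 1) to -2.42. Over the members, all 90 alternative values kept their sign and 3 moved by more than the replicate SD: Hbb without conduit sample 1, and Hba-a3 without injury sample 1 or conduit sample 2. The members were chosen for lower counts in conduit, without overlap of the groups here. The kept signs of the sum and of the members are therefore a description only. The alpha to beta ratio of 3.96 in injury was 3.43 by counts and 5.71 as Hba-a1 and Hba-a2 over Hbb. With both injury samples 2 and 3 left out it was 4.32, the value of injury sample 1 alone. Leaving out single libraries moved it between 3.78 and 4.07. The ratio of 3.03 in conduit was 2.08 in batch 2 alone and moved between 2.59 and 3.50 when single libraries were left out. By construction the count ratio is lower because beta-type rows are longer.

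Over all genes edgeR called 1 gene, and 6 with no filter on low counts. DESeq2 called 209, and limma called 7 on log2(FPKM + 1) and 3 on log2(FPKM + 0.1). With batch as a term edgeR called 0 (257 at an unadjusted p under 0.05), and from 0 to 38 with each library left out. Calls of the members are not given apart, since they were chosen from this contrast. Added after seeing the data, leaving out both injury samples 2 and 3 gave 23 calls and leaving out both injury sample 1 and conduit sample 2 gave 13. For the red cell genes, 0 calls became 21 with DESeq2, from 0 to 15 with each library left out (15 without injury sample 1), and 6 without both injury sample 1 and conduit sample 2. The cause of these changes was not tested. With the replicate number as a block, edgeR called 0 genes (554 at an unadjusted p under 0.05), 0 of the red cell genes, and the globin sum was -2.77. Deviations of same-numbered libraries correlated at -0.42, 0.06 and -0.07 over genes. With so few libraries per group, these values cannot decide whether the samples were paired, and the labels give no pairing. The few counts of Hba-a3 and Hbq1b in conduit limit their values there.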
